A study of Mus musculus with 12 samples.

Results

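Growth hormone and STAT5 response genes were followed mouse by mouse in liver RNA of Hsd17b13 knockout (KO) and wild-type (WT) mice. The set has 9 genes, among them the receptor Ghr, the transcription factors Stat5a and Stat5b, and the feedback inhibitors Cish, Socs2 and Socs3. The others are the circulating growth factor Igf1, Igfals, which encodes a subunit of its blood complex, and the repressor Bcl6. This set was picked by name, with earlier results of the same 12 libraries known. It came out of 20143 genes in the deposited table, and all 9 were found. Each passed the minimum mean of 1 CPM, a count scaled to a library sum of 1000000. Because the same values were in view when the genes were picked, their levels, spread and co-variation are given as a description.

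The KO group held 6 mice lacking Hsd17b13 and the WT group 6 wild-type mice, with 1 liver library per mouse. Every mouse of both groups was kept for 12 weeks on CDAA-HFD, a high-fat diet with defined amino acids and no choline, starting at 8 to 10 weeks of age. This diet makes the liver fatty, inflamed and scarred, and no mice on another diet were analysed here. The labels give no strain, sex, litter, sampling hour or feeding state, and nothing used here gives the site of the deletion or how the line was made. Mice are numbered 1 to 6 within each group as the labels number them. The labels do not say whether a number links a KO mouse to a WT mouse.

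Growth hormone leaves the pituitary in pulses. In hepatocytes it binds a receptor dimer that activates the kinase JAK2, which phosphorylates STAT5. STAT5 dimers then enter the nucleus, bind TTCNNNGAA elements and raise Igf1, Igfals and the genes of their own inhibitors, and CIS and the SOCS proteins end the signal at the receptor. The rhythm of the pulses differs between male and female rodents, and BCL6, a repressor that can occupy the same elements as STAT5, is itself lowered by STAT5.

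In depth, 1 CPM stood for 46.2 to 76.5 counts in KO libraries and for 52.6 to 77.9 counts in WT libraries. Hsd17b13, the deleted gene, ranged from 0.956 to 1.40 CPM in KO and from 315 to 393 CPM in WT, so each library followed its label. The 9 hepatocyte markers summed to 68883 to 86262 CPM in KO and to 69171 to 89504 CPM in WT, with Alb and Hnf4a among them. Ddx3y, a Y-linked gene, was at 50.5 to 72.4 CPM in KO and at 42.0 to 70.4 CPM in WT, while Xist did not exceed 1.36 CPM in KO or 0.969 CPM in WT. KO mice 1 and 3 differed from the other 4 KO mice in some genes, picked after their values were seen: the pseudogene Gm8730 had 117 and 119 CPM there, against 185 to 206 CPM in the rest of KO and 25.6 to 30.9 CPM in WT. The interferon-induced gene Isg15 had 23.4 and 14.8 CPM in these 2 livers, against 37.2 to 85.0 CPM in the other KO mice and 12.9 to 34.6 CPM in WT. Irf7, also induced by interferon, did not split them in this way, at 114 and 81.6 CPM in these 2 livers and 108 to 230 CPM in the other KO mice, against 50.2 to 114 CPM in WT. Values that rest on these 2 mice are therefore given with and without them.

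Promoter sequences are shown for the 4 members whose window, from 250 bases before to 50 after a RefSeq transcript start, held the STAT motif TTCNNNGAA. The windows are on GRCm38.p6, the build of the mm10 gene positions given here, and capitals mark the motif. The Cish window is chr9:107296409-107296708 on the plus strand, with a motif that begins at the start base and another 11 bases after it. The window of the second Bcl6 promoter entry is chr16:23981234-23981533 on the minus strand, with motifs that begin 168, 122 and 88 bases before the start. The window of the second Igfals entry is chr17:24877981-24878280 on the plus strand, with a motif that begins 58 bases before the start. The Socs3 window is chr11:117969317-117969616 on the minus strand, with a motif that begins 154 bases before the start.
Cish: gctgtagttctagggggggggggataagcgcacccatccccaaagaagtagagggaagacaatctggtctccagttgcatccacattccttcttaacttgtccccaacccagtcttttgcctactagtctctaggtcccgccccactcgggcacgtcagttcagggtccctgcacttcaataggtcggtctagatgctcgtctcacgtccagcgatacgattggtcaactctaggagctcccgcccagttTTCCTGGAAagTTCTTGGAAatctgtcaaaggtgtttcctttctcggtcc
Bcl6: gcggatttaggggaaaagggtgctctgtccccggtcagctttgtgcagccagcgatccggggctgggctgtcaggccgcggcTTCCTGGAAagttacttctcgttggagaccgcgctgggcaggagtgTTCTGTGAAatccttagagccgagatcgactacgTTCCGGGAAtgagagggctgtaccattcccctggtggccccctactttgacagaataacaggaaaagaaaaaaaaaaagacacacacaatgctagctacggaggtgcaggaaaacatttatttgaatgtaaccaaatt
Igfals: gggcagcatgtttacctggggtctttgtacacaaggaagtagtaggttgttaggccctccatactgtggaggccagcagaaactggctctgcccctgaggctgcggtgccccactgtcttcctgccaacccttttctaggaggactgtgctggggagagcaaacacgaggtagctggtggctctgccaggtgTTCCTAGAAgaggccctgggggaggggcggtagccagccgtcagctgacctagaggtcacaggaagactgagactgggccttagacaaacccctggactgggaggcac
Socs3: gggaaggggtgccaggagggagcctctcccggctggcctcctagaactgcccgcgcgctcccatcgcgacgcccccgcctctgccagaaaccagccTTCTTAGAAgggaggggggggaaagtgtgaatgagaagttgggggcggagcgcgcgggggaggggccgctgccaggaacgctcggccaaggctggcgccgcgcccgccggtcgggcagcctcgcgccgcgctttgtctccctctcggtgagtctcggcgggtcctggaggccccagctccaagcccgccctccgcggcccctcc
The motif letters read the same on both strands, so each match counts for both, and none of the matches shown overlap. Of the 9 members, 8 had a RefSeq entry, and Socs2 was the one not matched. The motif was in at least 1 window of 4 of these 8 genes, against 9.55% of the 27025 genes with an entry. The letters were not found in the windows of Ghr, Stat5a, Stat5b and Igf1. A match describes the sequence and was not a measure of STAT5 or BCL6 binding, which was not assayed.

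Ghr, the receptor that starts the signal, lies at chr15:3317760-3583492 on the minus strand (ENSMUSG00000055737, mm10, protein coding, as are all 9). It was at 250.3, 310.0 and 326 CPM in KO (lowest, median and highest mouse) and at 241, 262 and 360 CPM in WT. The groups overlapped, and the single highest value belonged to WT mouse 5. The means were 299 ± 29.7 CPM in KO and 275 ± 44.0 CPM in WT (SD, n = 6 each). The difference, KO minus WT of log2(CPM + 1), was 0.13 (SE 0.10, limma adjusted p = 0.721), on a scale that understates changes of low genes.

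Stat5a and Stat5b encode the 2 forms of STAT5, with Stat5b the form known to matter most in liver. Stat5b (ENSMUSG00000020919, chr11:100780731-100850724, minus strand) had 70.9, 76.2 and 85.2 CPM in KO, against 68.8, 84.5 and 93.5 CPM in WT as lowest, median and highest mouse. Its groups overlapped, with means of 76.6 ± 4.99 CPM in KO and 83.6 ± 8.35 CPM in WT, and the difference was -0.12 (SE 0.07, limma adjusted p = 0.59). Stat5a (ENSMUSG00000004043, chr11:100859351-100885169, plus strand) had 24.4, 26.1 and 32.3 CPM in KO, against 27.3, 32.8 and 36.9 CPM in WT. In KO, 4 mice lay below every WT mouse, and KO mice 5 and 6 lay inside the WT range. Stat5a averaged 27.3 ± 2.87 CPM in KO and 31.8 ± 3.76 CPM in WT. Its difference of -0.22 (SE 0.09) had the smallest p of the set, 0.0245 unadjusted and 0.319 after adjustment over all genes in limma. Exons of Stat5a overlap those of Stat3 on the other strand, and nothing used here gives the strand setting of the counting. The 2 STAT5 transcripts are also alike, at 90.2% identity over 2355 bases, so some of their reads may have been shared.

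Cish encodes CIS, which blocks STAT5 docking at the receptor and is among the fastest targets of growth hormone in liver. It lies at chr9:107296026-107302784 on the plus strand (ENSMUSG00000032578). KO mice had 8.67, 37.6 and 59.4 CPM as lowest, median and highest, against 12.8, 19.7 and 43.0 CPM in WT mice. The 3 KO mice 1, 3 and 4 reached 59.4, 54.5 and 48.4 CPM and lay above every WT mouse, and KO mouse 5 lay below every WT mouse. The KO range was thus 6.85-fold from lowest to highest and the WT range 3.37-fold. Means were 36.6 ± 20.4 CPM in KO and 23.8 ± 11.1 CPM in WT, and the difference of 0.46 (SE 0.41, 95% interval -0.42 to 1.34, limma adjusted p = 0.778) was within this spread. With 1 mouse left out the difference ran from 0.28 (without KO mouse 1) to 0.80 (without KO mouse 5). Without KO mice 1 and 3 the KO mean was 26.4 ± 16.5 CPM (n = 4) and the difference 0.03.

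Socs2, whose protein targets the receptor for degradation and whose loss makes mice overgrow, lies at chr10:95385362-95417180 on the minus strand (ENSMUSG00000020027). It had 15.8, 27.5 and 80.6 CPM in KO, against 19.1, 37.7 and 55.5 CPM in WT. KO mice 1 and 3, at 73.3 and 80.6 CPM, lay above every WT mouse, and KO mice 2 and 5, at 15.8 and 16.1 CPM, lay below every WT mouse. The means were close, 40.1 ± 29.1 CPM in KO and 37.7 ± 13.0 CPM in WT, with a difference of -0.13 (SE 0.39, limma adjusted p = 0.953). Without KO mice 1 and 3 the KO mean was 21.7 ± 6.68 CPM (n = 4) and the difference -0.74 (limma adjusted p = 0.216), so the even means rested on those 2 livers. A processed pseudogene, Gm9847, is 99.5% identical to Socs2 over 599 bases and was listed at 0.127 to 1.34 CPM in KO and at 0.317 to 0.716 CPM in WT.

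Socs3 answers to cytokines of the IL-6 family through STAT3 as well as to growth hormone, and it lies at chr11:117966079-117970047 on the minus strand (ENSMUSG00000053113). It had 20.9, 36.6 and 50.2 CPM in KO, against 15.4, 38.7 and 55.0 CPM in WT, and the groups overlapped throughout. Its means of 36.3 ± 10.96 CPM in KO and 35.6 ± 16.2 CPM in WT gave a difference of 0.11 (SE 0.30, limma adjusted p = 0.946).

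Igf1, the hormone that carries much of the growth signal from liver to the rest of the body, lies at chr10:87858265-87937042 on the plus strand (ENSMUSG00000020053). It had 376, 435 and 557 CPM in KO, against 330.0, 433 and 490 CPM in WT as lowest, median and highest mouse. KO mouse 1 was the only KO mouse above every WT mouse. The means were 443 ± 61.2 CPM in KO and 424 ± 55.3 CPM in WT, a difference of 0.06 (SE 0.10, limma adjusted p = 0.904), and without KO mice 1 and 3 the KO mean was 415 ± 28.5 CPM (n = 4) and the difference -0.025. Igfals, the acid-labile subunit that holds IGF1 in its long-lived complex in blood, lies at chr17:24865997-24882010 on the plus strand (ENSMUSG00000046070). It had 59.3, 63.4 and 89.0 CPM in KO, against 50.6, 60.5 and 77.2 CPM in WT. KO mice 3 and 6 lay above every WT mouse, and the other 4 lay within the WT range. The means were 70.1 ± 13.0 CPM in KO and 61.9 ± 8.90 CPM in WT, a difference of 0.17 (SE 0.12, limma adjusted p = 0.688).

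Bcl6, the repressor that opposes STAT5 at shared sites and is higher in male than in female mouse liver, lies at chr16:23965052-23988852 on the minus strand (ENSMUSG00000022508). KO mice 1 to 6 had 10.7, 9.93, 15.6, 13.6, 90.9 and 39.6 CPM, and WT mice 1 to 6 had 62.3, 16.5, 62.4, 35.8, 11.2 and 32.9 CPM. In KO 4 mice sat at or below 15.6 CPM, and of these mice 1 and 2 lay below all WT mice. KO mouse 5 stood above all WT mice, while in WT the low mice were 2 and 5 and the high mice 1 and 3. The range was 9.16-fold in KO and 5.56-fold in WT, the widest of the 9 genes in each genotype. Means were 30.0 ± 31.8 CPM in KO and 36.9 ± 21.8 CPM in WT, and the difference of -0.54 (SE 0.54, 95% interval -1.70 to 0.62, limma adjusted p = 0.813) did not exceed the spread. With 1 mouse left out it ran from -0.95 (without KO mouse 5) to -0.33 (without KO mouse 2). Without KO mice 1 and 3 the KO mean was 38.5 ± 37.4 CPM (n = 4) and the difference -0.20. The interval with all mice reaches more than a log2 unit in the lower direction, so a sizeably lower level in KO was not excluded with these mice.

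**Figure D1:**
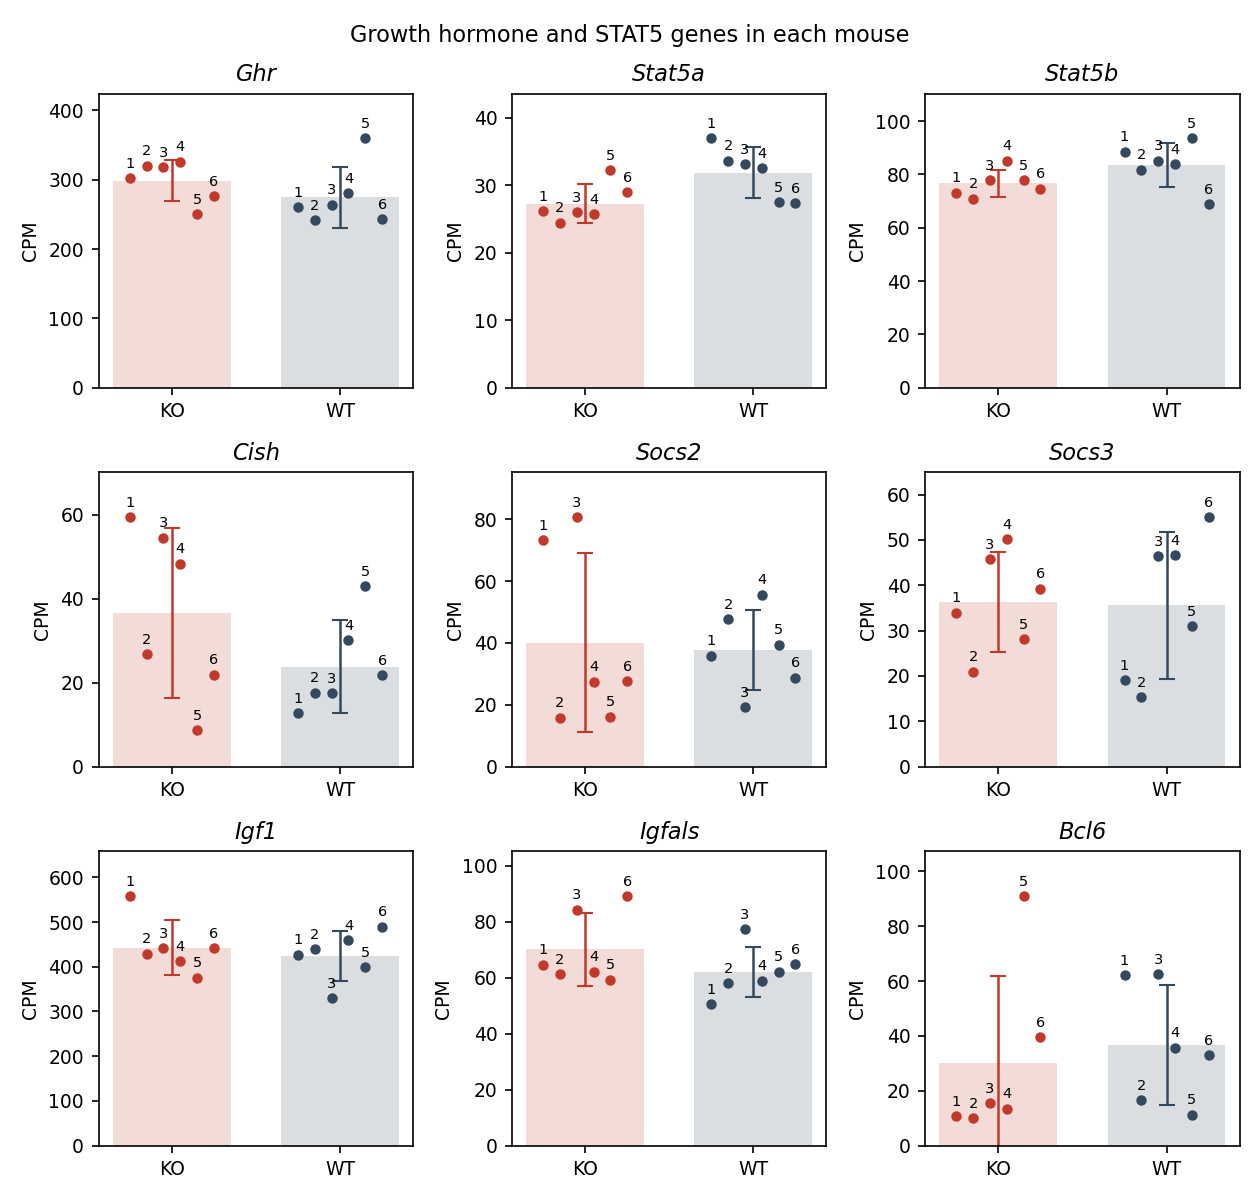
Expression of the 9 genes in CPM on the vertical axes, 1 panel per gene, with KO left of WT. Points are mice with their numbers, bars are means and error bars are SD (n = 6 per genotype). Points of Cish, Socs2, Socs3 and Bcl6 scatter widely, from 9.93 to 90.9 CPM for Bcl6 in KO, while those of Ghr, Stat5b and Igf1 sit close to their means.

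Per kilobase of exon, which allows levels of different genes to be set side by side, the order of the mean levels in KO was Igf1, Ghr, Igfals, Stat5b, Socs3, Cish, Bcl6, Socs2 and Stat5a. The KO levels per kilobase were 44.7 ± 6.18 CPM for Igf1, 33.0 ± 3.28 CPM for Ghr, 22.1 ± 4.11 CPM for Igfals and 13.8 ± 0.900 CPM for Stat5b. Those of Socs3 and Cish were 12.6 ± 3.79 and 5.70 ± 3.17 CPM, and those of Bcl6, Socs2 and Stat5a were 4.48 ± 4.75, 4.21 ± 3.05 and 3.82 ± 0.402 CPM. In WT the first 5 places were the same, from Igf1 at 42.8 ± 5.59 CPM per kilobase to Socs3 at 12.3 ± 5.62 CPM. Bcl6 at 5.50 ± 3.26, Stat5a at 4.46 ± 0.527, Socs2 at 3.96 ± 1.36 and Cish at 3.71 ± 1.73 CPM per kilobase followed in WT. In both genotypes, neighbours among Cish, Bcl6, Socs2 and Stat5a differed by less than the SD of the more variable gene. So did Stat5b and Socs3.

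None of the 9 genes was called between KO and WT at an adjusted p of 0.05 in limma, where 0.198% of the 15648 genes tested were called (31 genes, of which 16 were higher and 15 lower). Before adjustment 1 member, Stat5a, had a p under 0.05, as did 1762 of all genes. The differences were positive for 5 members and negative for 4, with a median of 0.06, against a median of -0.03 and 39.2% positive over all genes tested. Livers are mixtures of cells, and in bulk RNA fewer cells of a type and less RNA per cell cannot be told apart. Of the markers of other cell types, the 7 recruited macrophage markers summed to 978 to 1457 CPM in KO and to 1492 to 2822 CPM in WT, and the 6 Kupffer cell markers to 375 to 561 CPM in KO and to 262 to 396 CPM in WT, with Timd4 under 1 CPM on average. Cholangiocyte markers summed to 20.7 to 39.6 CPM in KO and to 43.3 to 98.7 CPM in WT. KO minus WT of single markers ran from -1.02 (Spp1) to -0.05 (Ccr2) for recruited macrophages. It ran from 0.07 (Adgre1) to 0.59 (Clec4f) for the Kupffer cell markers tested, and from -1.22 (Epcam) to -0.73 (Sox9) for cholangiocytes. The part of these cell types in the members' values was not tested.

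The 9 genes differed in their spread between mice of the same genotype. The within-genotype SD of log2(CPM + 1) was 1.10 for Bcl6, 0.83 for Cish, 0.80 for Socs2 and 0.61 for Socs3. Of the 15648 genes tested, 0.0511% had a larger SD than Bcl6, 0.256% than Cish, 0.294% than Socs2 and 0.78% than Socs3. The receptor, the STATs and the IGF pair varied far less, with 0.23 for Igfals, 0.19 for Igf1, 0.18 for Ghr, 0.15 for Stat5a and 0.12 for Stat5b. Between 25.2% and 69.5% of all genes had a larger SD than these 5. Counting alone gave the members an error of at most 4.67% of a value, while the values of Bcl6, Cish, Socs2 and Socs3 spanned 2.40-fold or more in each genotype.

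**Figure D2:**
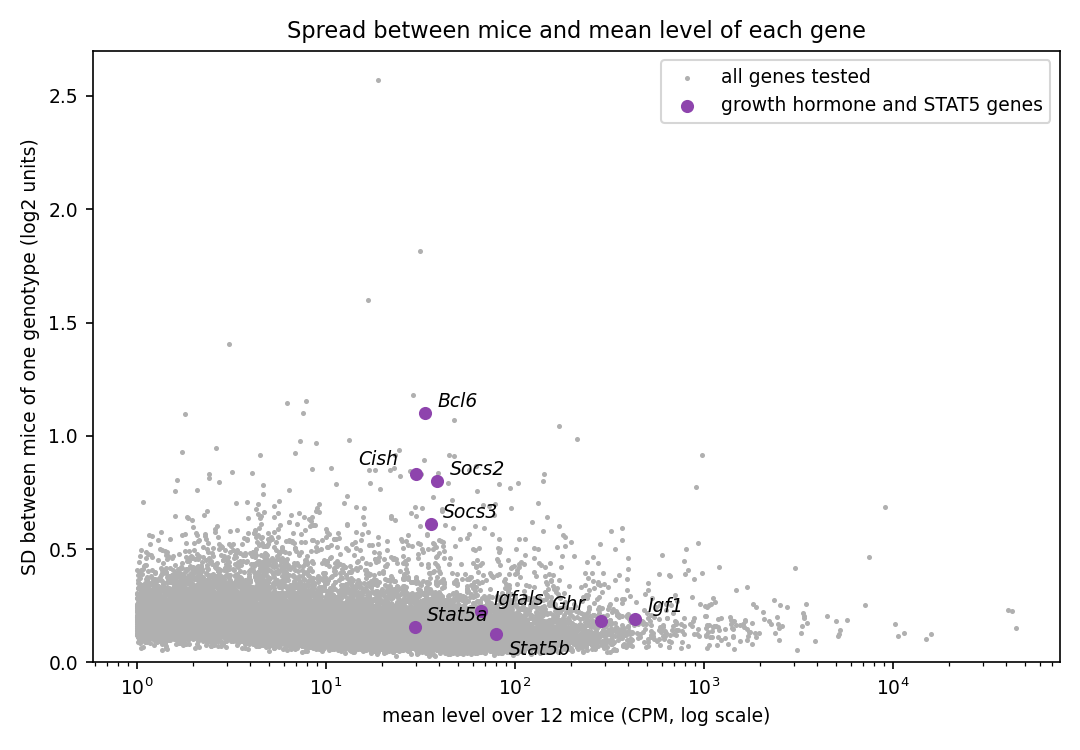
Within-genotype SD of log2(CPM + 1) on the vertical axis against mean expression on the horizontal axis for 15648 genes, with the 9 members as labelled points. Bcl6, Cish, Socs2 and Socs3 lie along the upper edge at an SD of 0.61 to 1.10, and the other 5 members lie within the bulk of genes.

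Across the 6 mice of a genotype the members did not move as a single block. Of the 36 pairs of members, 24 had a positive Pearson r of log2(CPM + 1) in KO and 18 in WT. The sign was the same in both genotypes for 26 pairs, positive in 16 and negative in 10. In KO 5 pairs had an unadjusted exact permutation p under 0.05, and in WT 0 pairs had. None passed after adjustment over the 72 correlations, the smallest adjusted p being 0.35 in KO and 0.6 in WT. The test uses 720 pairings, so its p cannot fall below 1 in 720. A single pair could therefore not pass alone, whatever its r, and the lack of a pass is no sign of absent co-variation. With 6 mice per genotype each r rests on few points, and mice that lie at the end of 1 gene's range decide several of them.

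**Figure D3:**
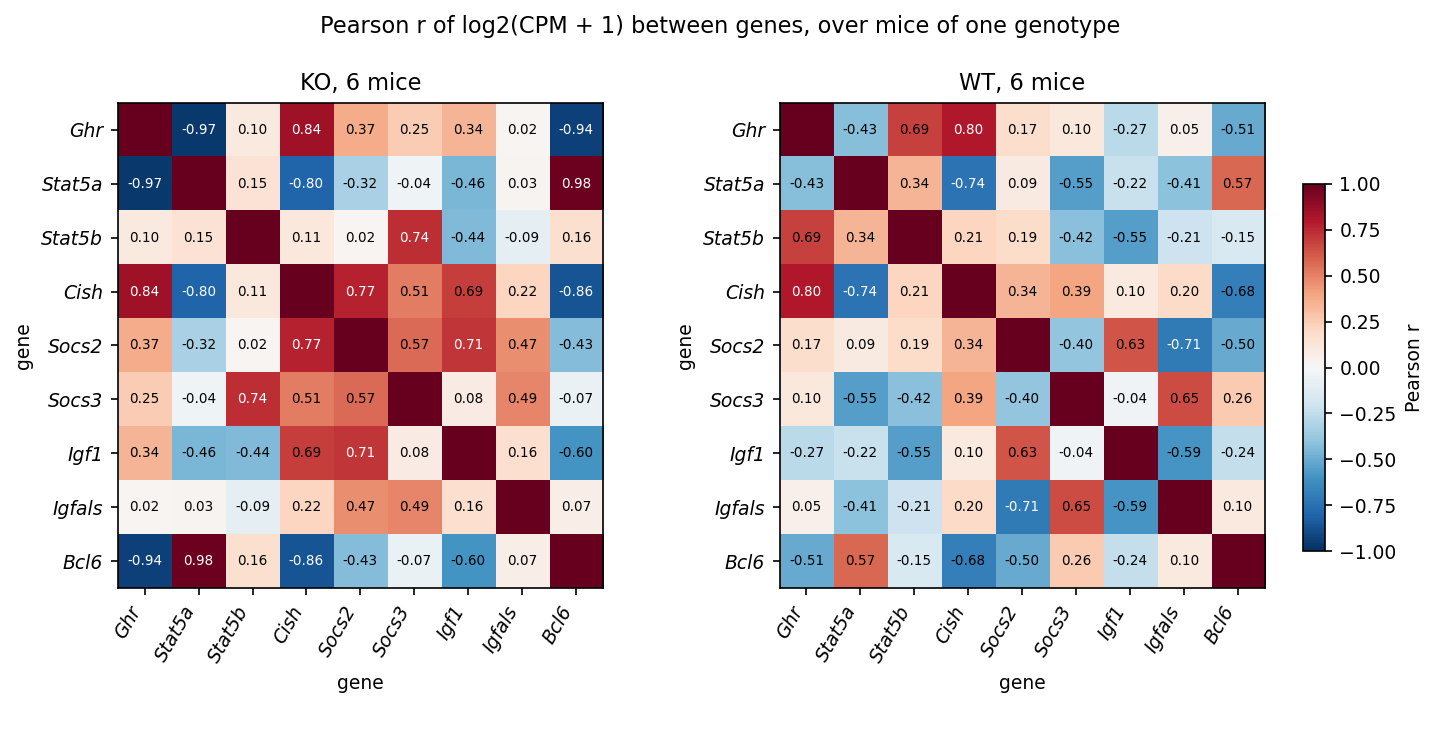
Pearson r of log2(CPM + 1) between each pair of the 9 members over 6 mice, KO on the left and WT on the right, on a colour scale from -1 to 1. The row of Bcl6 is negative with Ghr and Cish and positive with Stat5a in both panels, and the KO panel has 6 pairs of an absolute r of at least 0.8, the WT panel 1.

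For Bcl6 and Cish the r was negative in both genotypes. KO mice 1 to 6 had 59.4, 26.7, 54.5, 48.4, 8.67 and 21.9 CPM of Cish, and WT mice 1 to 6 had 12.8, 17.6, 17.5, 30.2, 43.0 and 21.8 CPM. In KO, mouse 5 combined the highest Bcl6 with the lowest Cish, 90.9 and 8.67 CPM, and mouse 6 had the second highest Bcl6 with the second lowest Cish, 39.6 and 21.9 CPM. In WT, mouse 5 had the lowest Bcl6 with the highest Cish, 11.2 and 43.0 CPM. KO mouse 2 and WT mouse 2 were low in Bcl6, at 9.93 and 16.5 CPM, with Cish at 26.7 and 17.6 CPM. Pearson r was -0.86 in KO (exact permutation test, p = 0.0361, adjusted p = 0.52) and -0.68 in WT (exact p = 0.133, adjusted p = 0.707). Spearman's rank correlation was -0.60 in KO (exact p = 0.242) and -0.71 in WT (exact p = 0.136). Without the 2 mice farthest from the median of Cish, r was -0.47 in KO and -0.46 in WT. In KO mice 1 and 5 were left out, and in WT mice 4 and 5. KO mouse 6 thus stayed in, and r without both KO mice 5 and 6 was not computed for this pair. Among KO mice 1 to 4, mouse 2 had the lowest value of both genes, so the negative r in KO leaned on mice 5 and 6.

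Ghr and Cish had an r of 0.84 in KO (exact permutation test, p = 0.0361, adjusted p = 0.52) and 0.80 in WT (exact p = 0.0556, adjusted p = 0.6). Spearman's rank correlation was 0.49 in KO (exact p = 0.356) and 0.54 in WT (exact p = 0.297). KO mice 5 and 6 had the lowest Ghr of their group, and WT mouse 5 had the highest. Without the 2 mice farthest from the Ghr median, r was -0.45 in KO and 0.38 in WT, so the relation rested on those mice.

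Stat5a and Ghr had an r in KO of -0.97 (exact permutation p = 0.00972, adjusted p = 0.35) and a rank correlation of -0.94 (exact p = 0.0167). In WT the r was -0.43 (exact p = 0.425) and the rank correlation -0.31 (exact p = 0.564). Stat5a and Bcl6 had an r of 0.98 in KO (exact p = 0.00972, adjusted p = 0.35) and 0.57 in WT (exact p = 0.258), with a rank correlation of 0.83 in KO (exact p = 0.0583) and 0.43 in WT (exact p = 0.419). Ghr and Bcl6 had an r of -0.94 in KO (exact p = 0.0222, adjusted p = 0.52) and -0.51 in WT (exact p = 0.324), with a rank correlation of -0.71 in KO (exact p = 0.136) and -0.03 in WT (exact p = 1). In KO these 3 relations again turned on mice 5 and 6, the mice with the highest Stat5a and Bcl6: without them r was -0.42 for Ghr with Stat5a, 0.57 for Stat5a with Bcl6 and 0.41 for Ghr with Bcl6. In WT, without the 2 mice farthest from the median of the first gene, the same 3 pairs had an r of 0.55, 0.37 and 0.13.

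The summed hepatocyte markers were lowest in KO in mice 5 and 6, at 70784 and 68883 CPM, and highest in WT in mouse 5, at 89504 CPM. Kupffer cell markers were highest in KO in mice 5 and 6, at 550.5 and 561 CPM. In WT they were highest in mouse 6, at 396 CPM, and lowest in mouse 1, at 262 CPM, with mouse 5 at 358 CPM. Stellate cell markers were highest in KO in mouse 5, at 885 CPM, with mouse 4 close to it at 868 CPM. Recruited macrophage markers were also highest in KO in mouse 5, at 1457 CPM, with mouse 1 close to it at 1451 CPM. In WT both were highest in mouse 1, at 1042 and 2822 CPM. Over the 15639 genes outside the set, the median r was -0.31 in KO and -0.26 in WT for Cish, -0.35 in KO and -0.29 in WT for Ghr, and 0.37 in KO and 0.34 in WT for Bcl6. The part of cell composition in the co-variation was not tested.

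Among the feedback inhibitors, Cish and Socs2 had an r of 0.77 in KO (exact permutation test, p = 0.0819, adjusted p = 0.627) and 0.34 in WT (exact p = 0.507), with a rank correlation of 0.66 in KO (exact p = 0.175) and 0.49 in WT (exact p = 0.356). KO mice 1 and 3 were the highest for both genes, and without these 2 mice r in KO was 0.60. Without the 2 mice farthest from the Cish median, r was 0.68 in KO and -0.24 in WT. Cish and Socs3 had an r of 0.51 in KO (exact p = 0.315) and 0.39 in WT (exact p = 0.44), with a rank correlation of 0.37 in each (exact p = 0.497 in each), and without the 2 mice farthest from the Cish median r was 0.61 in KO and 0.65 in WT. Socs2 and Socs3 had an r of 0.57 in KO (exact p = 0.228) and -0.40 in WT (exact p = 0.45), with a rank correlation of 0.60 in KO (exact p = 0.242) and -0.26 in WT (exact p = 0.658). Without the 2 mice farthest from the Socs2 median, that r was 0.92 in KO and -0.85 in WT. Socs2 and Igf1 had an r of 0.71 in KO (exact p = 0.0903) and 0.63 in WT (exact p = 0.183), with a rank correlation of 0.77 in KO (exact p = 0.103) and 0.37 in WT (exact p = 0.497). Without the 2 mice farthest from the Socs2 median, r was 0.48 in KO and -0.60 in WT. Igf1 and Igfals, which encode 2 of the parts of the blood-borne complex, had an r of 0.16 in KO (exact p = 0.711) and -0.59 in WT (exact p = 0.211). Their rank correlation was 0.71 in KO (exact p = 0.136) and -0.20 in WT (exact p = 0.714). Without the 2 mice farthest from the Igf1 median, r was 0.84 in KO and -0.20 in WT.

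**Figure D4:**
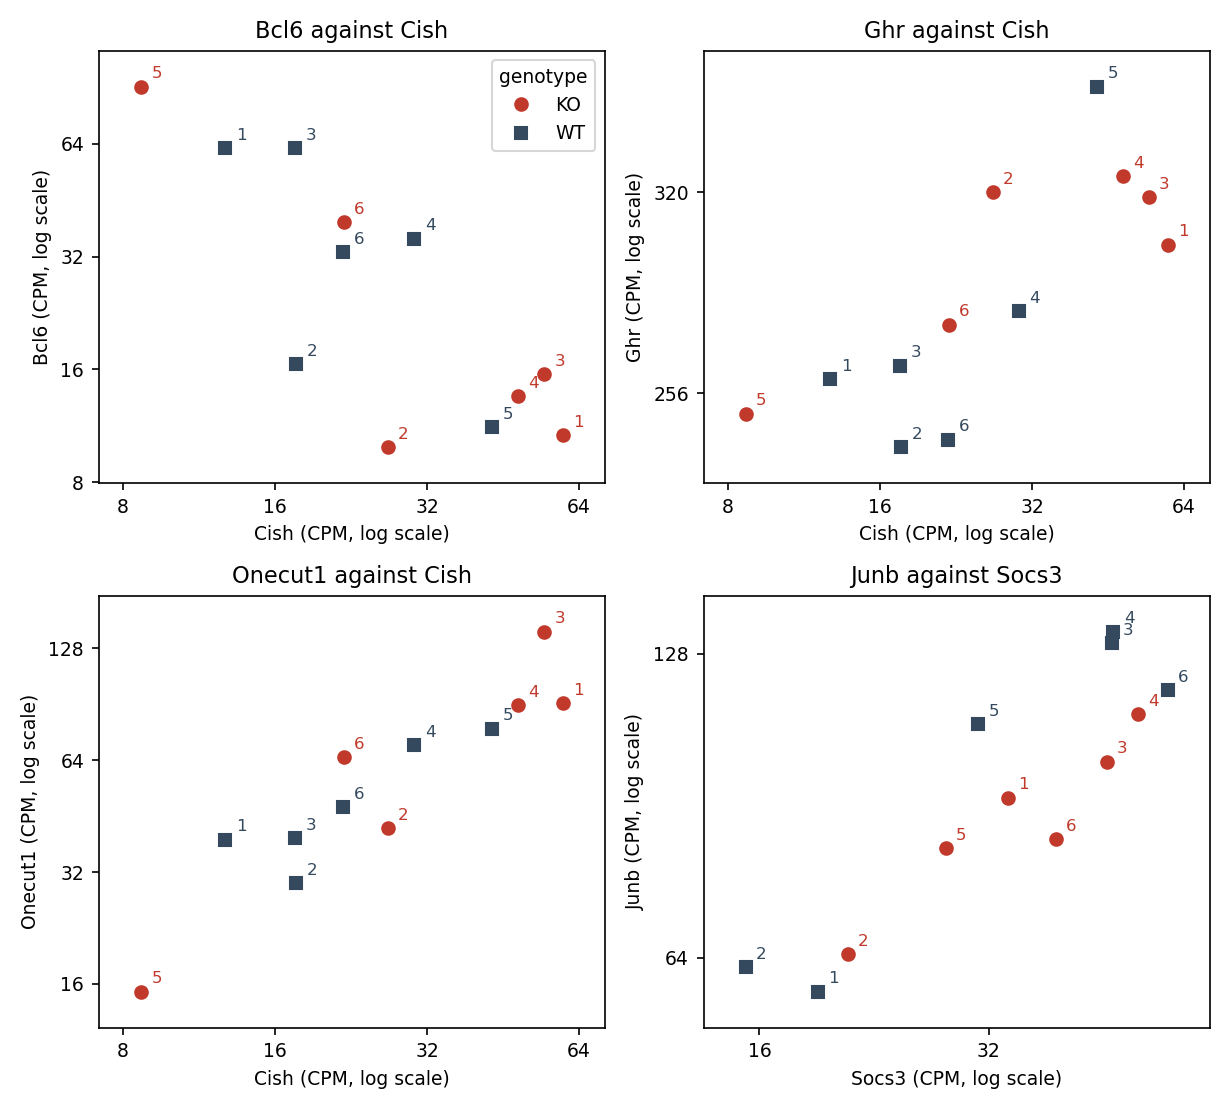
Paired values of single mice in CPM on log axes for Bcl6 with Cish, Ghr with Cish, Onecut1 with Cish and Junb with Socs3, KO and WT in separate colours (6 mice each). KO mouse 5 has the lowest Cish, 8.67 CPM, at the highest Bcl6, 90.9 CPM, while KO mouse 2 and WT mouse 2 are low in Bcl6 without being high in Cish, and Onecut1 and Junb rise with their partners in both genotypes.

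The genes that followed each member most closely were sought among the 9186 genes that averaged 10 CPM or more, over the 12 mice after each genotype mean was removed. As the highest of many correlations, these are a description with no p. Ghr was followed by Cyp2d9, a male-biased cytochrome P450 with close relatives in mouse (r = 0.96), by Cyp2e1, an ethanol-oxidising cytochrome P450 and one of the hepatocyte markers (0.92), and by the hepatocyte transcription factor Foxa2 (0.92). Socs3 was followed by Dusp1 (0.94), Slc25a25 (0.94) and Junb (0.94), of which Dusp1 and Junb are immediate early genes, transcribed within a short time of many stimuli. Cish was followed by Plcxd2 (0.95), Rnaseh2a (0.94), which encodes a ribonuclease subunit, and Cdadc1 (0.93).

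Bcl6 was followed by Psd4 (0.95), by the tubulin gene Tubb5 (0.94) and by Sec14l1 (0.94). Those nearest to Socs2 were Slc25a30 (0.91), the cell cycle inhibitor gene Cdkn2c (0.90) and Mxi1 (0.90), which encodes a partner of MAX. Igf1 had Pias2 (0.92), Otud6b (0.91) and Asnsd1 (0.91), and Igfals had Rrs1 (0.88), the kinase gene Mtor (0.88) and the mitochondrial ribosomal gene Mrps34 (0.88). Stat5a had Commd7 (0.93), Lzts2 (0.93) and Lnx2 (0.92), and Stat5b had Eps8l2 (0.86), Zfyve1 (0.86) and Klf11 (0.85). All 27 of these genes had a positive r in each genotype, the lowest being 0.64 for Eps8l2 with Stat5b in KO. They were chosen by r over the same mice, so a positive r in each genotype follows largely from the choice.

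Onecut1, which encodes the liver factor HNF6 and is known to be raised by growth hormone through STAT5, was chosen for description after its values were seen. It was at 91.1, 41.9, 142, 90.2, 15.2 and 65.2 CPM in KO mice 1 to 6, and at 39.1, 29.8, 39.5, 70.4, 77.9 and 47.9 CPM in WT mice 1 to 6. Its lowest KO mouse and its highest WT mouse, both numbered 5, were also those of Cish, and its r with Cish was 0.93 in KO and 0.88 in WT. Junb was at 92.2, 64.5, 100.1, 112, 82.2 and 83.8 CPM in KO mice 1 to 6, against 59.2, 62.6, 131, 135, 109 and 118 CPM in WT mice 1 to 6. Mice low in Junb, KO mouse 2 and WT mice 1 and 2, were the lowest in Socs3.

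Male-biased liver genes are those known to be higher in male than in female mice under the hormone's pulse pattern. Of 15 male-biased liver genes tested besides the members, 13 had a positive r with Cish in both genotypes (86.7%), against 14.2% of all genes. With Ghr it was 12 of 15 (80%, against 13.6% of all genes) and with Socs2 11 of 15 (73.3%, against 25%). With Socs3 it was 7 of 15 (46.7%, against 32.4%), with Igfals 5 of 15 (33.3%, against 25.1%) and with Igf1 3 of 15 (20%, against 26.3%). With Bcl6, 11 of the 15 had a negative r in both genotypes (73.3%), against 14.3% of all genes. Of 11 female-biased genes, 6 had a negative r in both genotypes with Cish (54.5%, against 55.4% of all genes) and 6 with Ghr (54.5%, against 61%). It was 8 with Socs3 (72.7%, against 27.2%) and 6 with Igfals (54.5%, against 38.2%). A negative r in both was found for 4 with Socs2 (36.4%, against 36.1%), 2 with Bcl6 (18.2%, against 14.3%) and 2 with Igf1 (18.2%, against 32.8%). For these 3 members the positive side was larger. A positive r in both was found for 6 with Bcl6 (54.5%, against 60.4%), 5 with Socs2 (45.5%, against 25%) and 4 with Igf1 (36.4%, against 26.3%). Another 7 liver genes are known to be raised by growth hormone through STAT5. Of these, 3 had a positive r in both genotypes with Cish (42.9%, against 14.2% of all genes). It was also 3 with Ghr (42.9%, against 13.6%) and with Igf1 (42.9%, against 26.3%). It was 2 with Socs2 (28.6%, against 25%) and with Bcl6 (28.6%, against 60.4%). With Socs3 it was 5 (71.4%, against 32.4%) and with Igfals 6 (85.7%, against 25.1%). Cish had a positive r in both genotypes with 8 of 9 immediate early genes (88.9%, against 14.2% of all genes), as did Igfals (88.9%, against 25.1%). It was 5 of 9 with Ghr (55.6%, against 13.6%) and 2 with Socs2 (22.2%, against 25%). With Igf1 it was 1 (11.1%, against 26.3%), and with Bcl6 also 1 (11.1%, against 60.4%). Socs3 had a positive r in both genotypes with 9 of 9 immediate early genes (against 32.4% of all genes) and with 21 of 24 acute phase genes of IL-6 and STAT3 signalling (87.5%). Igfals had a positive r in both with 18 of 24 acute phase genes (75%, against 25.1% of all genes). It was 9 of 24 with Bcl6 (37.5%, against 60.4%), 7 with Cish (29.2%, against 14.2%) and 6 with Socs2 (25%, against 25%). With Igf1 it was 5 (20.8%, against 26.3%) and with Ghr 4 (16.7%, against 13.6%). The genes of a list are measured in the same mice and are not independent, so the counts are descriptions.

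Other genes of the pathway gave 0 calls between KO and WT in limma over all genes. Of 17 genes of growth hormone receptor signalling tested, 2 had an unadjusted p under 0.05, Stat5a among them. The kinase gene Jak2 had a difference of 0.05 (SE 0.10, limma adjusted p = 0.92). Of 15 dampeners of the signal, 1 had such a p. This was Socs1, an inhibitor of JAK kinases induced by interferons, at 2.13 ± 0.432 CPM in KO and 1.22 ± 0.264 CPM in WT (difference 0.50, SE 0.11, limma adjusted p = 0.0829). Without KO mice 1 and 3 Socs1 passed, with a difference of 0.59 (limma adjusted p = 0.0317), as did Prom1 of the female-biased list (-1.24, limma adjusted p = 0.032).

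In the IGF axis 11 genes were tested, and before adjustment 4 had a p under 0.05, with 1 positive and 3 negative differences. Over all genes 11.3% had such a p, 566 of them with a positive and 1196 with a negative difference. Igfbp3, a carrier that forms the blood complex with IGF1 and the acid-labile subunit, was at 19.6 ± 2.18 CPM in KO and 16.1 ± 1.59 CPM in WT (difference 0.27, limma adjusted p = 0.153). Igfbp2, another IGF carrier, was at 784 ± 68.4 CPM in KO and 965 ± 142 CPM in WT (difference -0.29, limma adjusted p = 0.226). Igf1r, the IGF1 receptor, was at 14.2 ± 1.54 CPM in KO and 20.2 ± 5.06 CPM in WT (difference -0.45, limma adjusted p = 0.153). Pappa, a protease that frees IGF1 from its carriers, was at 0.8505 ± 0.112 CPM in KO and 1.68 ± 0.780 CPM in WT (difference -0.49, limma adjusted p = 0.136). Stellate cell markers summed to 676 to 885 CPM in KO and to 763 to 1042 CPM in WT. Single markers went both ways, with differences of 0.44 for Lrat and 0.03 for Reln. Those of Col1a1, Pdgfrb, Des and Dcn were -0.49, -0.44, -0.19 and -0.05. The part of stellate cells in the values of the IGF axis was not tested.

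Of 12 liver genes known to be raised by growth hormone through STAT5, members included, 9 had a positive difference and 3 a negative one, with a median of 0.13. Of 16 male-biased genes tested 11 were positive, also with a median of 0.13, and of 11 female-biased genes 5 were positive, with a median of -0.00. The 24 acute phase genes had a median difference of 0.10, with 17 positive, and the 9 immediate early genes a median of -0.32, with 8 negative. In these 5 lists 0 genes were called, against 0.198% of all genes. Before adjustment 7 had a p under 0.05, a share near the 11.3% of all genes, of which Mup3, Gstp1, Nudt7 and Crp had positive and Prom1, Fmo2 and Atf3 negative differences. Mup3 and Gstp1 belong to families of near-identical genes, so their counts are uncertain.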

How the data were processed

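Per the labels' protocols, RNA came from 25 to 100 mg of liver of each of 12 mice, and 1 µg was depleted of globin and ribosomal RNA before directional library preparation. A molecule field instead names polyA RNA; which holds is unsettled. The submitters' processing notes list mm10, Partek 10.0, STAR 2.7.3a and DESeq2 1.14.1 and no roles. The counting tool, annotation and strand setting were not stated in the labels or headers.

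The authors deposited CPM values, each column summing to 1000000. Between 69.2% and 83.7% of a library's low values were whole multiples of its step within a tolerance of 0.02 steps (4% if evenly spread). The remainder were fractional, so whole reads could not be recovered for a count test. The steps gave depth; errors from them cover counting only. Symbols and positions came from GENCODE annotation of mm10 for 20055 of 20143 IDs. Sequences came from RefSeq promoters on GRCm38.p6. Library pairs of a genotype differed beyond counting noise (median chi-square 2.45 to 8.00, against 0.455).

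The comparison of KO with WT used limma 3.58.1 (R 4.3.3) on log2(CPM + 1) with a mean trend, for the 15648 genes averaging 1 CPM or more, two-sided, with Benjamini-Hochberg adjustment over all of them. Labels give no litter or culture, so p-values measure the spread between these mice, which may in part be technical. Correlations within a genotype used all 720 pairings (SciPy 1.17.1, Python 3.11.15), two-sided, adjusted over 72. Copies were sought with BLASTN 2.17.0. The steps were tested on simulated data. Members and lists were chosen with earlier results of these data known. Named genes are the members, Hsd17b13, up to 4 genes of smallest p per list, the 3 most alike per member, and sex chromosome transcripts; not all are printed, and 1 gene so taken is not reported here. Gm8730, Isg15, Irf7, Onecut1 and Gm9847 were named after values were seen. Alternatives were pseudocounts of 0.5 and 10, means of at least 10 CPM or no filter, 2 other scalings, no trend, a replicate block and each mouse left out.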

Additional observations from a re-analysis of the deposited data

How the results depend on the processing

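No member was called under any of 21 alternatives, the smallest adjusted p being 0.166 for Stat5a. The 31 calls over all genes became 20 with a pseudocount of 10, 14 with a mean of at least 10 CPM, 76 with quantile normalization (35 higher, 41 lower), 62 with median-of-ratios scaling (24 higher, 38 lower, against 16 and 15), 15 to 50 with 1 mouse left out, and 192 (130 higher, 62 lower) without KO mice 1 and 3, a setting chosen after seeing the data. The smallest of the leave-one-out counts, 15, came without WT mouse 3 and the largest, 50, without KO mouse 3. Of the pathway lists, 0 genes were called, but 1 (Socs1) with either other scaling and 3 without KO mice 1 and 3. A replicate block on mouse number gave 43 calls, 22 of them among the 31, and no member call. Deviations of mice of the same number had an r of -0.51 to 0.42, and 2 of 6 matched their own number best. This does not settle whether the numbers pair the mice, on which the labels are silent. With 1 mouse left out, signs turned for Socs2 (-0.39 to 0.067, positive without KO mouse 2 or 5), Socs3 (-0.09 to 0.27, negative without WT mouse 1 or 2) and Igf1 (-0.0082 to 0.11, negative without KO mouse 1 or WT mouse 3, and -0.025 without KO mice 1 and 3). Of the correlations, 12 pairs in each genotype were rerun this way, and the others were not. Signs turned for Ghr with Stat5b in KO (-0.50 to 0.39, negative without mouse 4) and 5 in WT: Ghr with Stat5a (-0.88 to 0.34) and with Bcl6 (-0.83 to 0.54), both positive without mouse 5, Socs2 with Igf1 (-0.21 to 0.96, negative without mouse 3), Stat5b with Socs3 (-0.66 to 0.084, positive without mouse 6) and Cish with Igf1 (-0.26 to 0.37, negative without mouse 3 or 4, and -0.026 with quantile normalization). Positive member pairs numbered 19 to 24 in KO and 15 to 20 in WT with 1 mouse left out. The cause of these shifts was not tested. The error of each r with 6 mice is wide, and depth limits genes near 1 CPM, such as Socs1 and Pappa.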
